A study of Mus musculus with 7 samples.

Results

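The IL-6, IL-10 and IL-12 families are the secreted cytokines by which macrophages instruct other immune cells, and 10 of their genes were followed here: Il6, Lif and Osm of the IL-6 family, Il10 and Il19 of the IL-10 family, and Il12a, Il12b, Il23a, Il27 and Ebi3 of the IL-12 family. The genes were chosen by name, as members of these families, with earlier results of these data known, and so were the gene lists below. A share over all genes beside a list count is therefore a description and not an independent test. The 10 genes came out of 48440 in the table of the LPS experiment and 55352 in that of the AAV experiment, and both held all 10. The cells were bone-marrow-derived macrophages (BMDMs), which are macrophages grown from the marrow of wild-type C57BL/6 mice with 20 ng per mL of the growth factor M-CSF. In the first experiment they had 0 h, 2 h or 4 h of LPS at 100 ng per mL, a bacterial cell wall component that Toll-like receptor 4 detects, with 1 library per time. In the second they carried an adeno-associated virus for 48 h, which under the broadly active CAG promoter expressed either GFP (AAV-GFP, the control) or the transmembrane protein Shisa3 (AAV-Shisa3, whose genotype label is Shisa3 overexpression), with 2 samples per group and no LPS. All samples were grown with M-CSF, so no group shows macrophages without it, and the AAV experiment had no sample free of virus.

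The IL-12 family is built from pairs of subunits. Il12a and Il12b encode the chains of IL-12, Il23a pairs with the same Il12b chain to give IL-23, and Il27 pairs with Ebi3 to give IL-27, while Ebi3 can also pair with the Il12a chain in IL-35. A macrophage therefore needs both mRNAs of a pair to make the cytokine. IL-6, LIF and oncostatin M (Osm) act through receptors that share the chain gp130 (Il6st), and IL-10 acts through Il10ra and Il10rb. IL-6 and IL-10 both signal through STAT3, but IL-6 is known as a driver of inflammation and IL-10 as its brake in macrophages. IL-12 and IL-23 steer helper T cells, and IL-19 is a relative of IL-10 that myeloid cells make after Toll-like receptor signals.

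The promoter windows of 4 members are printed first, because they belong to genes whose levels differed most in kind: Il6 and Il12b had few reads before LPS and many after, Il19 had no read before LPS, and Ebi3 was already read in unstimulated cells. Each runs from 250 bases before to 50 bases after a transcription start in RefSeq on build GRCm38.p6. RefSeq windows were at hand for 6 of the 10 genes, in 7 windows: Il6, Il19, Il12a (2 starts), Il12b, Ebi3 and Lif. The other genes are Il10, Il23a, Il27 and Osm. Capitals mark the letters of any of 6 short patterns on either strand: NF-kB as GGG, any 5 bases and CC, C/EBP as TTNNGNAA, AP-1 as TGANTCA, CRE as TGACGTCA, STAT as TTCNNNGAA and ISRE as GAAA, any 2 bases and GAAA. Overlapping matches run together in 1 block of capitals.
Il6, plus strand, chr5:30012864-30013163: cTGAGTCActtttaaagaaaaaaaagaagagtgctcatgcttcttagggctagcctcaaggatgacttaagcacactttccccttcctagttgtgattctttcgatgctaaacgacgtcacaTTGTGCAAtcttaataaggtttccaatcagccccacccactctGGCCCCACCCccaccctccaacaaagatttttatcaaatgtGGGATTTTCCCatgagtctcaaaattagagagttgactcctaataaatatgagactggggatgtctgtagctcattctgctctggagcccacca
Il19, minus strand, chr1:130940066-130940365: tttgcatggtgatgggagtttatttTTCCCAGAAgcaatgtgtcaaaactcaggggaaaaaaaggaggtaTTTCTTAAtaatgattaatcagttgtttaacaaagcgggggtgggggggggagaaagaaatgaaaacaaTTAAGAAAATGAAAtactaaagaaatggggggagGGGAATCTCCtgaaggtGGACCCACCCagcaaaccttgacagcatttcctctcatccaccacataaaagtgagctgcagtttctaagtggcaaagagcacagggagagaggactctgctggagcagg
Il12b, plus strand, chr11:44399813-44400112: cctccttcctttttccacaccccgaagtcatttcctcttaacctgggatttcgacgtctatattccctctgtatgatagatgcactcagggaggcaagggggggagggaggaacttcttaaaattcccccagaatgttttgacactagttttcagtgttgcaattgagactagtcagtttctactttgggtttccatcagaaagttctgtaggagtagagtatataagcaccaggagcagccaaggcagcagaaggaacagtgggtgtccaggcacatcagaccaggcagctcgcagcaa
Ebi3, plus strand, chr17:55952373-55952672: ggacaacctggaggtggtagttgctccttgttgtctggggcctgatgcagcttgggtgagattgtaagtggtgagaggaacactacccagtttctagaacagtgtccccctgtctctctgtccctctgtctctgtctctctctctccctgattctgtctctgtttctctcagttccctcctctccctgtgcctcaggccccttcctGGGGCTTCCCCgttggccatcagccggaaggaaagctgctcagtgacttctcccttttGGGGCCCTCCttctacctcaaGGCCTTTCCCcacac

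The Il6 window held matches to 3 of the 6 patterns: AP-1 beginning 249 bases before the start, C/EBP at 128 bases, and NF-kB letters beginning 85, 44 and 43 bases before it, the last pair overlapping on opposite strands. The Il19 window held 4 patterns, with STAT at 225 bases, C/EBP at 180 and 111 bases, ISRE at 107 bases and NF-kB at 77 and 60 bases before the start. The Ebi3 window held only NF-kB letters, from 44 bases before the start and again after it. The Il12b window held none of the 6 as spelled. Of the windows not printed, those of Lif held AP-1 and NF-kB letters, and of the Il12a starts 1 held NF-kB letters and 1 held none. NF-kB letters were in 5 of the 7 windows, against 50.8% of all 32851 windows in the table, so a match of that pattern is common. C/EBP letters were in 40.7% of all windows, STAT in 8.30%, AP-1 in 7.81%, ISRE in 3.44% and CRE in 1.79%. A match is a run of letters and not a measured binding site, and the absence of one says nothing of the factor.

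The LPS libraries differed in depth, with 15588502 reads at 0 h, 7263258 at 2 h and 32659392 at 4 h, and 3 reads correspond to 0.192, 0.413 and 0.0919 RPM (reads per 1000000 reads of the library). The AAV table gives no depth, and its 2 samples of a group had a correlation of 0.989 (AAV-GFP) and 0.986 (AAV-Shisa3) over the genes tested, against at most 0.982 between groups. Shisa3 itself measured 7.88 and 10.85 TPM under AAV-GFP, against 12.31 and 17.81 TPM under AAV-Shisa3. The log2 fold change of 0.63 did not pass the test (adjusted p from limma of 0.138), so the check of the transgene in these samples was limited. The paper itself reports Shisa3 overexpression in such cells from mRNA and protein measurements. In the LPS libraries Shisa3 had 1, 164 and 3174 reads at 0, 2 and 4 h. Macrophage markers were abundant in all samples, with summed values of 34862 to 37967 TPM in the AAV samples and 17015 to 32031 RPM in the LPS libraries, the latter without Itgam, which was not analysed there. Of 6 T cell markers Cd3e and Trac were at 0 in all 7 samples, while Cd4 was at 5.76 and 7.13 TPM under AAV-GFP and at 8.82 and 10.39 TPM under AAV-Shisa3 (log2 fold change 0.51, adjusted p from limma = 0.105, its part in the cytokine differences not tested), and Lck had 1, 82 and 524 reads over the LPS times. Of 5 mast cell markers Mcpt4 was at 0 in all samples, and Kit had 28, 23 and 70 reads. The 8 dendritic cell markers summed to 3.07 to 4.66 TPM in the AAV samples, with Cd209a at 0, and to 10.2, 12.3 and 20.97 RPM at 0, 2 and 4 h of LPS. There 4 were at least 2-fold higher and 2 lower at 2 h, against 20.5% and 24.7% of all genes, and 3 higher and 2 lower at 4 h, against 22.2% and 23.6%. None of the 8 had more than 29 reads at 2 h, and Ccr7 had 20, 29 and 483 reads. Their part in the LPS results was not tested. The 6 fibroblast markers summed to at most 16.4 TPM and 46.0 RPM, and the 4 B cell markers to at most 0.49 TPM and 0.128 RPM.

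After LPS, 9 of the 10 cytokine genes had at least 2-fold more signal at 2 h than at 0 h, where 20.5% of all 17854 genes kept were, and 10 of 10 were at 4 h, where 22.2% were. None of the 10 was at least 2-fold lower at either time, against 24.7% and 23.6% of all genes. One of these, Il23a, rested on 2 reads, so the counts that reads can carry are 8 of 9 and 9 of 9. The median log2 fold change of the 10 genes was 5.43 at 2 h and 5.52 at 4 h, and with genes that had no read held at their lower bound and Il23a left out it was 5.13 and 5.57, against -0.05 and -0.04 over all genes. Folds are ratios of the authors' values, and called means at least 2-fold on log2(value + 1) among genes whose mean over the libraries reached 1. With 1 library per time there is no replicate check and no test. The 95% intervals below cover counting error only, and not the choice of scaling.

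**Figure D1:**
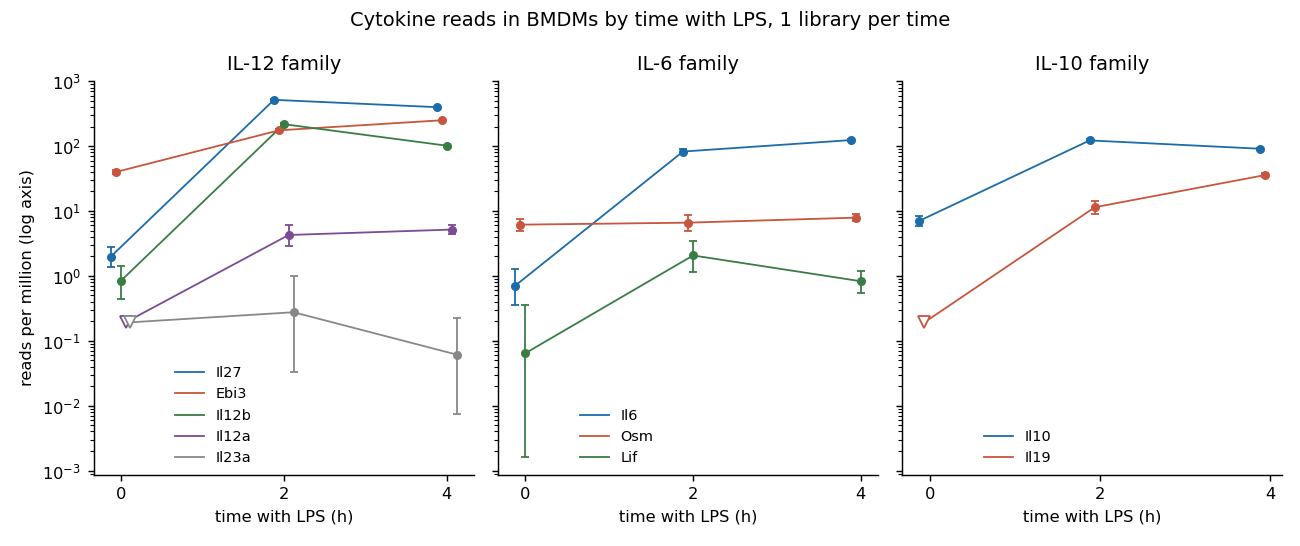
RPM (log axis) of the 10 cytokine genes at 0, 2 and 4 h of LPS, with 1 library per time, exact 95% Poisson intervals as bars, and open triangles at the limit of 3 reads where no read was counted. Il27 and Il12b lay above Ebi3 at 2 h, Il19 was higher again at 4 h, and Osm stayed between 6.16 and 7.90 RPM.

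Of the IL-6 family, Il6 (chromosome 5, 30013114 to 30019981, plus strand of GRCm38) went from 11 reads at 0 h to 599 at 2 h and 4043 at 4 h, or 0.706, 82.5 and 124 RPM. It was 185-fold higher at 2 h (95% interval 103 to 372) and 1.68-fold higher again at 4 h than at 2 h (1.54 to 1.83). Lif (chromosome 11, 4257557 to 4272514), known for holding stem cells undifferentiated, had 1, 15 and 27 reads. Its ratio of 50.9 at 2 h rests on that single read and has an interval of 7.83 to 2144, while at 4 h it was at 0.448 of the 2 h value, with an interval of 0.230 to 0.906. Osm (chromosome 11, 4236420 to 4241026), a gp130 cytokine made by myeloid cells, had 96, 48 and 258 reads, or 6.16, 6.61 and 7.90 RPM. On the authors' scale Osm was 1.70-fold (2 h) and 2.27-fold (4 h) higher than at 0 h, but 1.07-fold and 1.28-fold with libraries scaled to equal totals, so its 2-fold call at 4 h depends on the scaling. Lif and Osm lie 16.53 kb apart on the same chromosome with no protein-coding gene between them, and Osm had more reads than Lif at each time.

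Scaling the libraries to equal totals lowered the median of all genes to -0.71 at 2 h and -0.83 at 4 h (log2), and Osm was 0.10 and 0.36 on that scale, above those medians. Over all 17935 genes kept on that scale, 13.3% were at least 2-fold higher and 40.6% lower at 2 h, and 12.8% higher and 44.5% lower at 4 h, while 9 and 8 of the 10 cytokines were higher (Osm and Il23a were under 2-fold at 4 h) and 0 were lower. The other 8 genes with more than 3 reads were at least 2-fold higher at both times under all 3 scalings (authors', totals, TMM). Their folds were smaller with equal totals. At 2 h these were 260 for Il27, 261 for Il12b, 117 for Il6, 17.3 for Il10 and 4.39 for Ebi3. Those of Il27, Il10 and Ebi3 lie outside the counting intervals given for the authors' scale.

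Of the IL-10 family, Il10 (chromosome 1, 131019845 to 131024974, plus strand), the brake on macrophage activation, was already counted before LPS with 110 reads (7.06 RPM), then with 889 at 2 h (122 RPM) and 2975 at 4 h (91.1 RPM). It was 27.4-fold higher at 2 h (22.5 to 33.8), and at 4 h it was at 0.833 of the 2 h value (0.772 to 0.899). Il19 (chromosome 1, 130932656 to 130940115, minus strand) had 0, 83 and 1168 reads. Its promoter window above is the one with most patterns matched. Il19 was at least 93.9-fold higher at 2 h, computed against 3 reads at 0 h, and a further 3.50-fold higher at 4 h than at 2 h (2.80 to 4.43). It was the only 1 of the 10 to be at least 2-fold higher at 4 h than at 2 h, against 17.9% of all genes, and Il10, 79.729 kb away with no protein-coding gene between, was lower at 4 h than at 2 h. At 4 h the Il10 mRNA was still the more abundant, at 162 against 72.6 TPM, with reads divided by exonic length.

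In the IL-12 family the subunits parted in time. Il27 (chromosome 7, 126589010 to 126594941, minus strand), which encodes the p28 chain, went from 31 reads to 3752 and 13000, or 1.99, 517 and 398 RPM. At 2 h it was 411-fold higher on the authors' scale (289 to 606) and 260-fold higher with equal library totals. Its partner Ebi3 (chromosome 17, 55952640 to 55957022, plus strand) went from 621 reads to 1271 and 8172, or 39.8, 175 and 250 RPM, which was 6.95-fold more at 2 h (6.31 to 7.66) and 11.1-fold more at 4 h (10.2 to 12.1). Ebi3 was thus well counted before LPS, and it was 1.60-fold higher at 4 h than at 2 h (1.51 to 1.70), when Il27 was at 0.862 of its 2 h value (0.831 to 0.894). The order of the pair reversed: per length, Ebi3 was 17.7 times Il27 at 0 h (12.4 to 26.3), while Il27 was 3.34 times Ebi3 at 2 h (3.13 to 3.56) and 1.80 times at 4 h (1.75 to 1.85). The annotation has an exon overlap of 103 bases between Il27 and Apobr and of 155 bases between Ebi3 and the antisense gene Gm16712. The strand setting of the counting is not given in the sources used here, and Apobr had 1640, 1377 and 2639 reads and Gm16712 had 7, 8 and 32.

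The chains of IL-12 showed a similar split. Il12b (chromosome 11, 44400063 to 44414033, plus strand), the p40 chain shared with IL-23, had 13, 1581 and 3313 reads, or 0.834, 218 and 101 RPM. It was 413-fold higher at 2 h (241 to 777), and at 4 h it was 1.92-fold lower than at 2 h on the authors' scale and 2.15-fold lower with equal library totals, so it falls on either side of the 2-fold line. Il12a (chromosome 3, 68690644 to 68698547, plus strand), the p35 chain, had 0, 31 and 169 reads and exceeded the limit of 3 reads at 0 h by at least 35.1-fold (2 h) and at least 47.6-fold (4 h). The Il12a ratio of 4 h to 2 h was 1.36 with an interval of 0.921 to 2.06, which includes no change. Per length Il12b exceeded Il12a by 44.1 times at 2 h (30.9 to 65.1) and by 17.0 times at 4 h (14.5 to 19.9). Il23a (chromosome 10, 128296139 to 128298752, minus strand), the p19 chain that would complete IL-23, had 0, 2 and 2 reads, so no fold is given and a change was not detectable at this depth. From 2 h to 4 h, 2 of the 10 genes were at least 2-fold lower, Lif and Il23a, against 15.2% of all genes, and the latter had the same 2 reads in both libraries.

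Per exonic length the order of the mRNAs changed with LPS. In TPM computed from the recovered reads, Ebi3 led at 0 h with 76.8, followed by Il10 at 12.0, Osm at 6.03 and Il27 at 4.33, and the other 6 were below 1. At 4 h Il27 led with 910, then Ebi3 at 506, Il10 at 162, Il12b at 120, Il6 at 119, Il19 at 72.6, Osm at 8.11 and Il12a at 7.10, with Lif and Il23a below 1. The Il12b and Il6 values at 4 h, and those of Osm and Il12a, are too close to be put in order, and the annotated Il6 length of 2428 bases includes a long isoform that would lower its value if the cells do not use it. Among 17854 genes ranked by log2 fold change at 2 h, Il27 was in position 10, Il12b 13 and Il6 34, and at 4 h Il27 was in position 22, Il6 26 and Il12b 45. Il19 and Il12a are given no position, because without a read at 0 h theirs depends on the pseudocount. Genes of that kind also shift the positions given above. With a pseudocount of 0.1, Il19 at 2 h went from 7.51 to 10.8 (log2), past Il27 at 8.68.

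Without LPS, AAV-Shisa3 macrophages had more Il27, Il10 and Osm mRNA than AAV-GFP macrophages, and these were the 3 of 6 cytokine genes tested that passed the threshold, all higher. The shares over all 11218 genes tested were 2.23% higher and 4.10% lower, and 0 of the 6 were lower. At an unadjusted p under 0.05 in limma 0 of 6 were lower too, where 2216 of the 11218 genes were. Genes averaging 1 TPM or more were tested with limma's trended test on log2(TPM + 1), which understates the change of low genes, with adjustment over all genes and a threshold of 0.05. The other 4 cytokines were below that mean in every group. Fewer expressing cells and less RNA per cell cannot be told apart in these bulk samples. The labels do not say that the 2 samples of a group were separate cultures or animals. The p-values rest on the spread between these samples, moderated with a trend over all genes, and measure no other spread. An exact permutation test of 2 against 2 cannot go below p = 0.333.

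Il27 measured 3.67 and 5.25 TPM under AAV-GFP, against 12.03 and 12.69 TPM under AAV-Shisa3. Both AAV-Shisa3 samples lay more than 2-fold above either control, and the log2 fold change was 1.31 (SE 0.17, adjusted p from limma = 0.0231). It was in position 46 from the top of all genes tested. Ebi3, its partner, measured 274.52 and 252.59 TPM under AAV-GFP, against 272.52 and 259.83 TPM under AAV-Shisa3, and the groups overlapped. The difference for Ebi3 was 0.02 on the log2 scale, with a 95% interval of -0.18 to 0.21 (adjusted p from limma = 0.914), so a change of the size seen for Il27 lies outside it. Ebi3 remained the higher of the pair in all 4 samples, by 74.8 and 48.1 times with AAV-GFP and by 22.7 and 20.5 times with AAV-Shisa3.

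**Figure D2:**
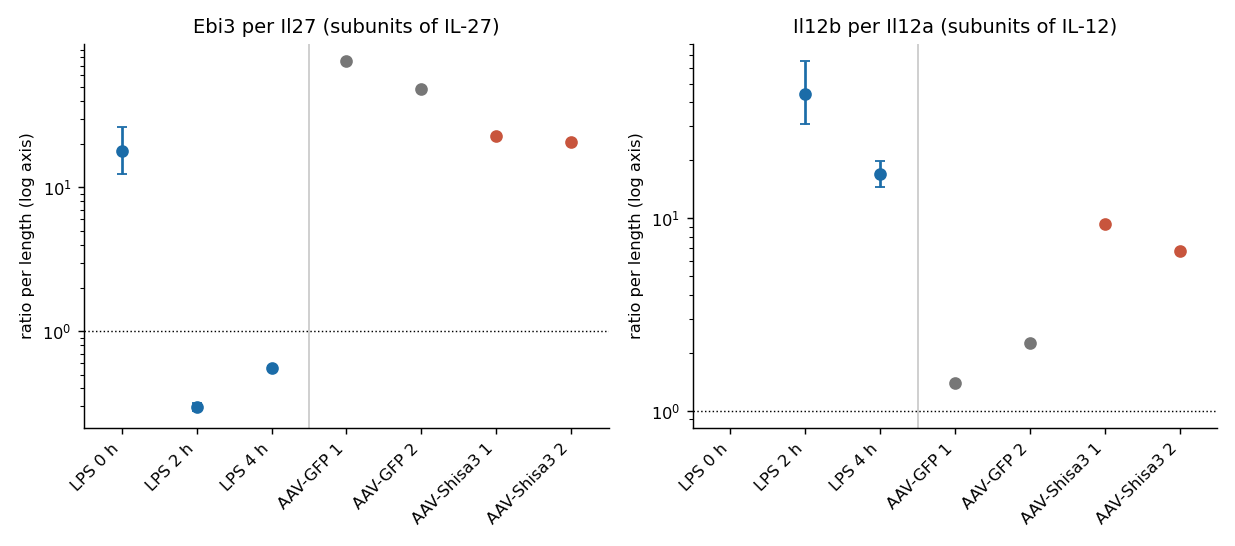
Ratio of subunit mRNAs per length (log axis) in the 3 LPS libraries (blue, bars are 95% counting intervals) and the 4 AAV samples (grey, AAV-GFP; orange, AAV-Shisa3), with the dotted line at 1. Ebi3 exceeded Il27 in unstimulated and AAV samples but not after LPS, and the Il12b to Il12a ratio has no point at 0 h because Il12a had no read.

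Il10 measured 30.24 and 34.31 TPM under AAV-GFP, against 56.79 and 53.22 TPM under AAV-Shisa3, without overlap (log2 fold change 0.75, SE 0.10, adjusted p from limma = 0.0231). Osm measured 4.89 and 4.35 TPM under AAV-GFP, against 8.16 and 7.73 TPM under AAV-Shisa3, again without overlap (0.67, SE 0.13, adjusted p = 0.0465). Il6 measured 8.55 and 8.61 TPM under AAV-GFP, against 12.14 and 13.47 TPM under AAV-Shisa3. The Il6 groups did not overlap, but the log2 fold change of 0.53 (SE 0.12) did not pass the threshold (adjusted p from limma = 0.0568, and 0.0379 to 0.230 over 10 alternatives).

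Il12b measured 0.50 and 0.79 TPM under AAV-GFP, against 1.87 and 2.15 TPM under AAV-Shisa3, and reached the filter only through the second pair. The log2 difference of 0.88 (SE 0.21) did not pass (adjusted p from limma = 0.0673). Il12a, the other chain of IL-12, measured 0.36 and 0.35 TPM under AAV-GFP, against 0.20 and 0.32 TPM under AAV-Shisa3, and was not tested. The Il12b value was 1.39 and 2.26 times that of Il12a in the AAV-GFP samples and 9.35 and 6.72 times in the AAV-Shisa3 samples, at levels where single reads can matter. Il23a was listed at 0 in both AAV-GFP samples and at 0.16 and 0.10 TPM with AAV-Shisa3. Lif was at 0.14 and 0.09 TPM against 0.21 and 0.56 TPM, and Il19 at 0 and 0.18 TPM against 0.08 and 0.30 TPM, so the Il19 groups overlapped.

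**Figure D3:**
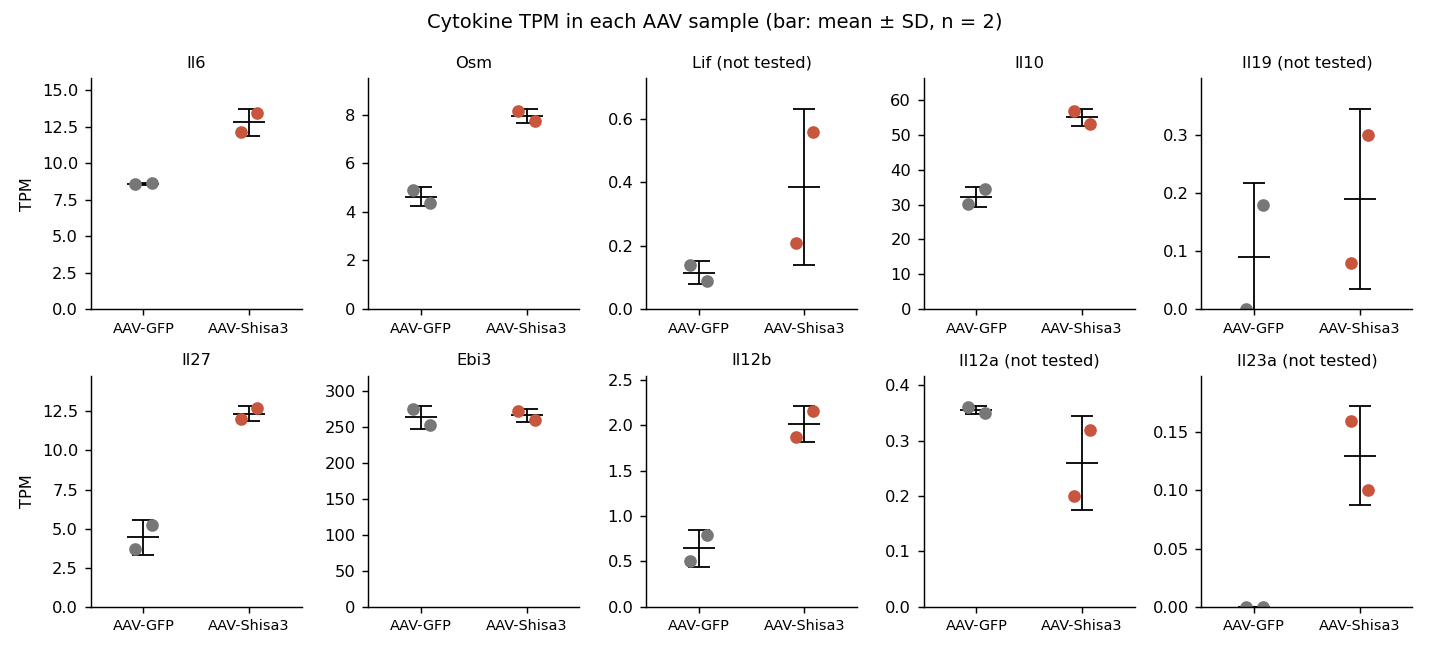
TPM of each cytokine gene in the 2 AAV-GFP samples (grey) and the 2 AAV-Shisa3 samples (orange), each panel with its own axis from 0, with bars for the mean and SD (n = 2). Il6, Osm, Il10, Il27 and Il12b lie higher in both AAV-Shisa3 samples, Ebi3 overlaps, and the panels marked as not tested hold values below 1 TPM.

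Both AAV-Shisa3 samples lay above both AAV-GFP samples for Il6, Il10, Il27 and Osm, as they did for 18.2% of all genes tested. Il12b is not counted with them, since it reached the filter through the AAV-Shisa3 samples. In order of level, Ebi3 led both groups (264 ± 15.5 TPM with AAV-GFP and 266 ± 8.97 with AAV-Shisa3, mean ± SD, n = 2), followed by Il10 (32.3 ± 2.88 and 55.0 ± 2.52). With AAV-GFP came then Il6 at 8.58 ± 0.04 TPM, and Osm and Il27 at 4.62 ± 0.38 and 4.46 ± 1.12 TPM, whose samples overlapped. With AAV-Shisa3, Il6 at 12.8 ± 0.94 TPM and Il27 at 12.4 ± 0.47 TPM overlapped and Osm followed at 7.95 ± 0.30 TPM. The mean of Il27 was thus near that of Osm in the controls and near that of Il6 with AAV-Shisa3.

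The 3 calls did not hold when any 1 of the 4 samples was left out. Those 4 fits leave 1 sample in a group, so only effect sizes are given here. The log2 fold change ranged from 0.66 to 0.84 for Il10, from 1.10 to 1.52 for Il27 and from 0.60 to 0.74 for Osm. Without the mean-variance trend 0 of 6 passed, and the adjusted p from limma was 0.0582 for Il10, 0.0557 for Il27 and 0.0603 for Osm. In that fit 5 of the 6 cytokines, all with more mRNA, had an unadjusted p below 0.05. Among all 11218 genes, 811 upward and 2148 downward differences reached the same cut there. With each sample centred on its median, which moved the median of all genes from -0.10 to 0.01, 4 passed, Il6 being the fourth (adjusted p = 0.0379), and the calls over all genes turned from 250 higher and 460 lower to 410 higher and 230 lower.

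**Figure D4:**
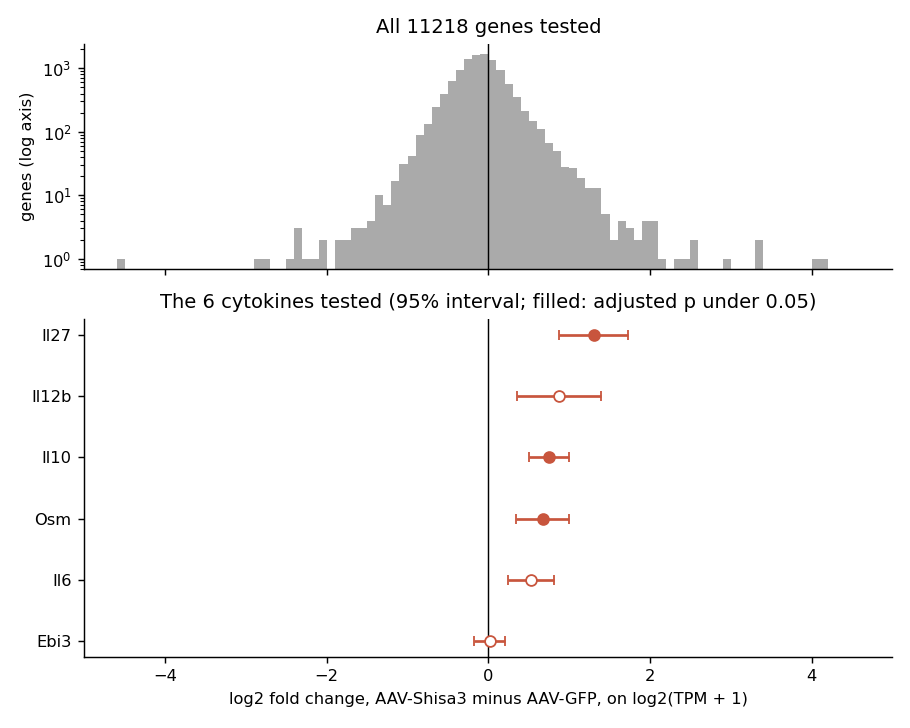
Top, distribution of log2 fold changes (AAV-Shisa3 minus AAV-GFP, on log2(TPM + 1)) over all 11218 genes tested, with a log count axis. Bottom, the 6 cytokine genes tested with 95% intervals, filled where the adjusted p from limma was under 0.05: Il27 at 1.31, Il10 at 0.75 and Osm at 0.67, while Ebi3 sits at 0.02.

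Some neutrophil markers were also higher in the AAV-Shisa3 samples, and their part in the cytokine differences was not tested. Of 8 listed, 6 were tested, and Camp (1.14, adjusted p from limma = 0.0422) and Ngp (1.02, adjusted p = 0.0378) passed, against 2.23% of all genes higher. S100a8, S100a9 and Ltf did not pass but also lay above both controls in both AAV-Shisa3 samples, as 18.2% of all genes did, and Retnlg (0.21 and 0.69 against 2.03 and 1.24 TPM) reached the filter only through AAV-Shisa3. The summed level of the list was 592 and 562 TPM in the controls, against 1086 and 675 TPM under AAV-Shisa3. The defining surface markers were near 0, with Ly6g at 0.10 to 0.29 TPM and Cxcr2 at 0.21 and 0.24 TPM in the controls and 0.14 TPM in both AAV-Shisa3 samples. In replicates 1 and 2 of AAV-Shisa3, Il10 measured 56.79 and 53.22 TPM, and Osm 8.16 and 7.73 TPM. Il6 measured 12.14 and 13.47 TPM there, Il27 12.03 and 12.69 TPM, and Il12b 1.87 and 2.15 TPM. Whether these differences follow the list was not tested. In the LPS libraries the same list summed to 457, 615 and 393 RPM. On the authors' scale 5 of the 8 (Camp, Ngp, Ltf, S100a9 and Retnlg) were at least 2-fold higher and 1 lower at 2 h, against 20.5% and 24.7% of all genes. The median log2 fold change at 2 h was 1.24, against -0.05 over all genes. At 4 h 0 were higher and 1 lower, against 22.2% and 23.6% of all genes. With equal library totals Camp was 1.19 at 2 h and the others of those 5 were 0.53 to 0.69, and the part of these markers in the LPS results was not tested.

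Of 15 receptor genes listed for these cytokines, 7 were tested with AAV-Shisa3, with 0 calls in either direction. With 2.23% of all genes higher and 4.10% lower, 0 of 7 is near the background. At an unadjusted p under 0.05 in limma it was also 0 of 7, where 921 of all 11218 genes were higher and 2216 lower. The 7 had a median log2 fold change of 0.02 against -0.10 over all genes. Il10ra, the ligand-binding chain for IL-10, measured 56.86 and 63.91 TPM under AAV-GFP, against 68.37 and 72.26 TPM under AAV-Shisa3 (0.22, adjusted p from limma = 0.192). Il10rb was at 137.25 to 145.84 TPM in the 4 samples. Il6ra, the IL-6 binding chain, was at 16.66 and 18.24 TPM against 14.57 and 14.44 TPM (-0.25, adjusted p = 0.189), and the shared chain Il6st was at 6.61 to 9.12 TPM with overlapping groups. Lifr was at 0.80 to 1.84 TPM, Il20rb, a chain of the IL-19 receptor, at 1.58 to 2.15 TPM and Il11ra1 at 18.98 to 22.53 TPM. Osmr, Il12rb1, Il12rb2, Il23r and Il27ra were below the filter with at most 1.07 TPM in any sample, and Il20ra, Il22ra1 and Il22ra2 were listed at 0.

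After LPS, Il6ra, Il6st and Lifr had lower values at both times, with no test possible. Il6ra had 2872, 236 and 486 reads, with log2 fold changes of -1.84 at 2 h and -2.80 at 4 h. Lifr had 1395, 109 and 249 reads (-1.91 and -2.72), and Il6st had 4711, 794 and 2244 reads (-0.81 and -1.31). Osmr had 19, 10 and 66 reads (0.79 and 1.48). For Il10ra the log2 difference was 1.21 (2 h) and 0.20 (4 h), and for Il10rb it was 0.23 and 0.44, but with equal library totals these were 0.55 and -0.62 for Il10ra and -0.43 and -0.38 for Il10rb, so the direction of Il10ra at 4 h and of Il10rb at both times depends on the scaling. Il23r had 0, 1 and 48 reads. Over the 13 receptors kept, 4 were at least 2-fold higher and 3 lower at 2 h, against 20.5% and 24.7% of all genes, and 5 higher and 4 lower at 4 h, against 22.2% and 23.6%. These shares are near the background, and those of Il27ra (3, 4 and 15 reads), Il23r and Il22ra2 (6, 0 and 1 reads) rest on few reads.

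Socs1 and Socs3 rose with AAV-Shisa3 and Pias3 fell. They were the calls among 16 signalling genes tested, 2 higher and 1 lower, where 2.23% of all genes were higher and 4.10% lower: Socs3 (143.90 and 181.18 against 273.49 and 297.81 TPM, a log2 difference of 0.82, adjusted p from limma = 0.0272), Socs1 (8.18 and 9.56 against 16.19 and 16.71 TPM, 0.83, adjusted p = 0.0263) and Pias3, which restrains STAT3 (13.49 and 14.34 against 8.17 and 9.17 TPM, -0.63, adjusted p = 0.0413). Socs1 and Socs3 encode inhibitors of JAK kinases and cytokine receptors. The Pias3 call was lost with samples centred on their medians, and all 3 calls were lost without the trend, without a filter or with any 1 sample left out. Other genes of those families did not pass, with Socs5 at -0.41, Socs7 at 0.04 and Pias1 at -0.58 on the log2 scale. After LPS Socs3 had 373, 28100 and 72708 reads and Socs1 had 38, 2595 and 3969. The kinases Jak1, Jak2 and Tyk2 and the transcription factor Stat3 did not pass, with Stat3 at 94.09 to 98.83 TPM in the 4 samples (-0.01, adjusted p = 0.949). The median of the 16 was -0.02, against -0.10 over all genes.

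Of 14 genes listed as targets of IL-6 and IL-10 in macrophages, all tested, 5 rose and 1 fell, beside the same 2.23% and 4.10% of all genes, with a median of 0.19 against -0.10 over all genes. The 5 were Socs3, Bcl3 (0.61), Junb (0.55), Sbno2 (0.38) and Zfp36 (0.68). Bcl3 and Sbno2 are known as repressors of inflammatory genes, and Zfp36 encodes tristetraprolin, which speeds the decay of cytokine mRNAs and is the 1 of 8 listed regulators of these mRNAs that passed. Il4ra, the IL-4 receptor chain, fell by 0.38, a call lost with samples centred on their medians. Other listed targets lay on either side, such as Il1rn, the IL-1 receptor antagonist, at 519.95 to 603.63 TPM with overlapping groups, and Fcgr1 at 1127.30 and 1005.05 TPM against 861.55 and 812.37 TPM (-0.35, adjusted p from limma = 0.0694).

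**Figure D5:**
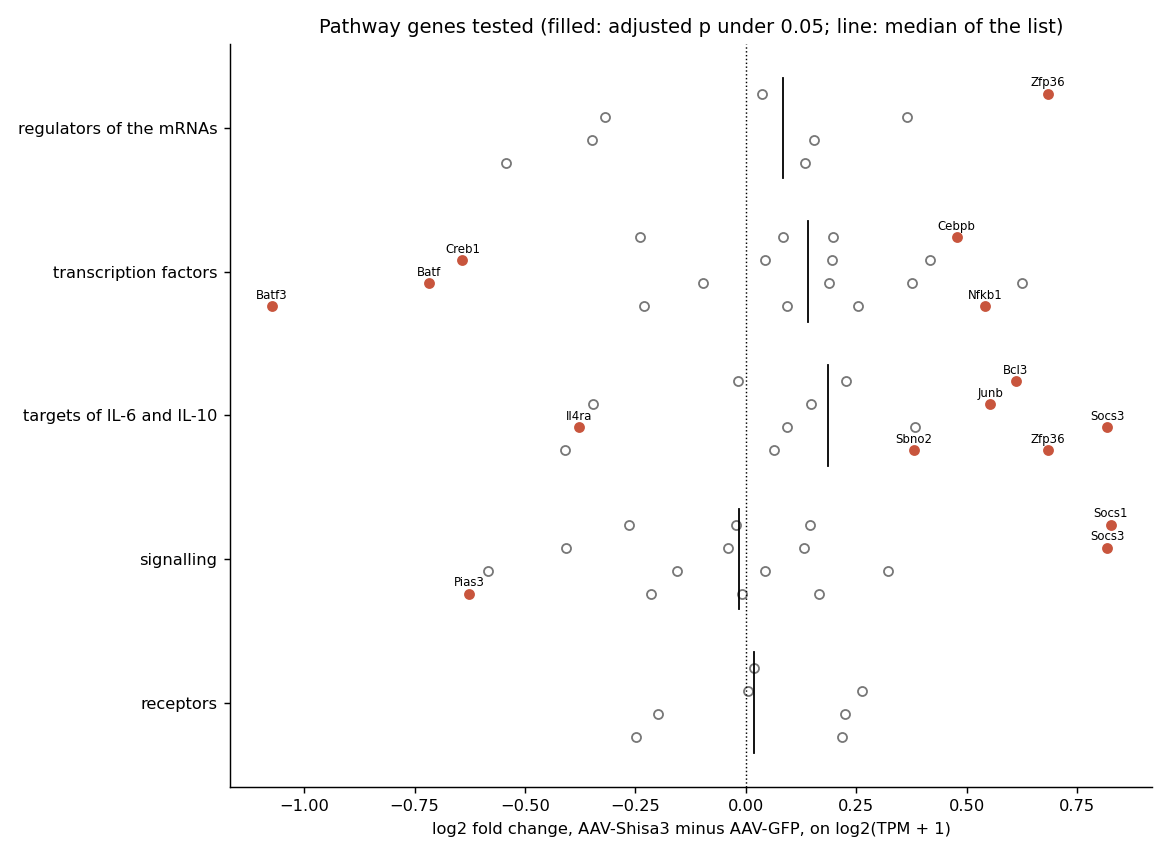
Log2 fold change, AAV-Shisa3 minus AAV-GFP on log2(TPM + 1), of the receptor, signalling, target, transcription factor and mRNA regulator genes tested, 1 point per gene, filled and named where the adjusted p from limma was under 0.05, with a line at the median of each list. Socs3 and Zfp36 stand in 2 lists each, and none of the receptors is filled.

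Of 18 transcription factors known at these cytokine genes 2 rose and 3 fell (2.23% and 4.10% over all genes), with a median of 0.14. Nfkb1, the p50 subunit of NF-kB, measured 119.87 and 143.20 against 195.98 and 186.44 TPM (0.54, adjusted p from limma = 0.0418), and Cebpb, a C/EBP factor, 297.84 and 322.78 against 404.94 and 460.80 TPM (0.48, adjusted p = 0.0422). Batf3 fell by 1.07, Batf by 0.72 and Creb1 by 0.64 on the log2 scale, and with samples centred on their medians Creb1 did not pass while Batf and Batf3 did. Batf and Batf3 are AP-1 family members, and Creb1 binds the CRE. After LPS 13 of the 18 were at least 2-fold higher at 2 h and 0 lower, against 20.5% and 24.7% of all genes, and at 4 h 11 were higher and 1 lower, against 22.2% and 23.6%. Over the 62 pathway genes tested, without the cytokines, 8 rose and 5 fell, against 2.23% and 4.10% of all genes. The pathway lists were written with earlier results of these data known, so these counts are descriptive. With samples centred on their medians 13 rose and 2 fell (Batf and Batf3), where 410 of the 11218 genes tested rose and 230 fell. The calls did not hold with any 1 sample left out.

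Over the 10532 genes kept in both tables, the genes nearest to each cytokine were found by the distance over 3 log2 fold changes (LPS 2 h and 4 h against 0 h, and AAV-Shisa3 against AAV-GFP), as a description over those 7 samples. Nearest to Il27 (8.61, 8.40 and 1.31) was Il1a (8.57, 8.46 and 1.47) at a distance of 0.18, then Ccl4 and Il1b at 0.59 and 0.71. Nearest to Il12b (8.53, 7.59 and 0.88) were Dusp2, Socs3 and Ccl4 at 0.56 to 0.60. Nearest to Il10 (4.76, 4.49 and 0.75) was Kcna3 at 0.31, then Daxx and Msantd3, and nearest to Il6 (7.34, 8.09 and 0.53) were Lhx2 at 0.42, Ccl7 and Bcl2a1a. Ebi3 (2.79, 3.47 and 0.02) was closest to Pilra at 0.09, then Rab20 and Tor3a, and Osm (0.75, 1.17 and 0.67) to Rab32 at 0.18, Endod1 and Capns2. None of these 6 had another of the 10 cytokines among its 3 nearest genes, and Il19, Il12a, Il23a and Lif were not compared, since they were not kept in both tables.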

How the data were processed

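RNA was sequenced from BMDMs in 7 samples. For the LPS libraries the authors deposited a signal per gene, in which every read count had been scaled by a library factor, and 100% of the entries came out as whole reads (tolerance 0.01 reads), so read counts were recovered. For the AAV samples the deposited values sum to just under 1000000 and were read as TPM, which the authors' table does not state, so that depth is unknown there. The program and annotation behind either table are not given in the sources used here. The submitters' processing notes name the build mm9, while positions and lengths were matched by identifier to GENCODE M21 on GRCm38 (99.2% of identifiers in the LPS table) and were not converted.

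The members and all gene lists were chosen with earlier results of these data known. The design had a branch for counts and one for normalised values, and the latter was used: limma 3.58.1 in R 4.3.3, two-sided, on log2(TPM + 1) with a trend, a mean of at least 1 TPM, and Benjamini-Hochberg adjustment over all genes. LPS folds used genes with a mean of at least 1 and a pseudocount of 1. Genes without a read were given as bounds against 3 reads per library, and intervals are exact 95% Poisson or conditional binomial ones. TMM factors came from edgeR 4.0.16, and other steps used Python 3.11.15 with pandas 2.3.3. The text names all 10 cytokines, their receptor chains, any listed pathway gene past the threshold, the 3 genes of nearest pattern, and Shisa3. Fcgr1, Il1rn, Stat3, Jak1, Jak2, Tyk2, Il22, Il24, Il31, Il20, Il20rb, Il11ra1, Socs5, Socs7, Pias1, Clcf1, Zc3h12a, Zfp36l2 and the marker genes were named as examples after their values were seen. Alternatives changed the trend, filter, pseudocount, scaling, replicate block or samples. Replicates of the AAV groups share numbers, but with 2 pairs and no label of a shared batch the numbers were not taken as pairs. The limma step was tested on simulated data with known changes. No column of the tables was left out.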

Additional observations from a re-analysis of the deposited data

How the results depend on the processing

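Over the 3 calls with AAV-Shisa3 (Il10, Il27 and Osm) direction was kept in all alternatives, but 0 of the cytokines passed without the mean-variance trend, without a filter on low values (6 at an unadjusted p under 0.05 in limma), and 0 to 0 with any 1 sample left out. For the difference of Ebi3, which was near 0, the sign turned to -0.045 without AAV-GFP replicate 2 and -0.019 without AAV-Shisa3 replicate 1, within a range of -0.045 to 0.075 over the 4 left-out samples. Over all genes, 250 were higher and 460 lower. These became 1 and 4 without the trend (811 and 2148 at an unadjusted p), 410 and 230 with centring, 0 and 0 without a filter (1118 and 2411 at an unadjusted p), 0 to 27 and 0 to 7 with 1 sample left out. Of the pathway genes, 8 higher and 5 lower became 0 and 0 without the trend or without a filter, 13 and 2 with centring, and 0 to 0 and 0 to 0 with 1 sample left out.

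With the replicate number as a block, 424 genes were higher and 851 lower, 12 pathway genes were higher and 8 lower, and 4 cytokines passed, Il6 (adjusted p from limma = 0.0443) besides the 3 above. The numbers do not mark a shared batch in the labels, and the correlation of the differences between replicates 1 and 2 in the 2 groups was 0.19 over 11218 genes. The cause of these shifts was not tested.

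For LPS, the genes at least 2-fold lower at 4 h than at 2 h went from 2 to 0 with a pseudocount of 5 and to 1 with a mean of at least 5, which removes Il23a. No other count of cytokines moved by over 1.5 times under the 7 alternatives, and of 207 single values 19 moved by more than counting error and 0 reversed. Depth limits Il23a, Lif and Il12a most, and the 2 h library is the shallowest. With 1 library per time, and 2 samples per AAV group, spread between cultures is not measured for LPS and poorly for AAV.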

Other observations

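Among other ligands of these families, Il22, Il24 and Il31 had no read in any LPS library and were listed at 0 in all AAV samples, and Il20 had 1 read at 4 h. Clcf1, a gp130 cytokine, had 5, 112 and 66 reads at 0, 2 and 4 h, which is 0.321, 15.4 and 2.02 RPM. Clcf1 was at 0.77 and 1.87 TPM with AAV-GFP and at 1.29 and 2.35 TPM with AAV-Shisa3, with overlapping groups (log2 fold change 0.30, adjusted p from limma = 0.575).

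Of the genes that control the lifetime of cytokine mRNAs, Zfp36 had 1108, 6200 and 23869 reads with LPS and Zc3h12a, which encodes the RNA-cutting protein Regnase-1, had 429, 1035 and 4349. Zfp36l2, a relative of Zfp36, went the other way, with 5753, 77 and 197 reads, and was at 26.60 and 28.41 TPM with AAV-GFP and at 15.78 and 21.76 TPM with AAV-Shisa3 (-0.54, adjusted p from limma = 0.0998).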
